A study of Homo sapiens with 2 samples.

Results

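Open chromatin near the ends of the chromosomes was described for the luminal epithelial line CAMA-1, derived from a breast cancer. It was measured by ATAC-seq, a method that uses an active transposase, Tn5, to cut accessible DNA and tag it with adapters for sequencing. The libraries came from 2 biological replicates of 50000 cells each, with no treatment listed, cultured as adherent cells in medium with serum, and both replicates form a single condition. MACS2 peaks had been called in each replicate separately, 245736 in replicate 1 and 259745 in replicate 2. Overlapping peaks of both replicates were merged, and a merged interval to which both replicates contributed is called a shared region. A shared region was taken as subtelomeric where its midpoint lay within 2 Mb of the first or last known base of an autosome in the hg38 build, and 10654 of the 215195 shared regions (4.95%) met this rule. They were set against the 8933 shared regions in the next 2 Mb inward on the same ends. The start of a chromosome is called its p end and the other its q end.

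Human telomeres are long arrays of the repeat TTAGGG, and each strand that runs 5′ to 3′ toward its own chromosome end reads TTAGGG. Inward of the array lie subtelomeres, mosaics of blocks that several chromosome ends share and that carry gene families in many near-identical copies. The telomeric transcript TERRA starts within subtelomeres, and CTCF, a zinc-finger protein that binds DNA and anchors chromatin loops, is known to bind beside many telomere arrays.

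Of the 44 autosome ends, the 5 starts of the acrocentric chromosomes (13p, 14p, 15p, 21p and 22p) did not match the label. Their first known base in hg38 was 5010001 for 21p, 10510001 for 22p, 16000001 for 13p and 14p and 17000001 for 15p. At the other p ends it was 10001 or 60001. The outermost kb of the 5 acrocentric starts held 0 copies of TTAGGG on either strand. They held 18 members in all, 15 of them at 21p. The other 39 ends held 10636 members. At 22 of these 39 ends the outermost kb of the reference held between 18 and 165 copies of TTAGGG, and at the other 17 it held between 0 and 9. Sequences and distances come from the reference, not from the DNA of these cells, whose own telomere lengths were not measured. As a check of the cell type, all 8 luminal epithelial marker genes (EPCAM, KRT8, KRT18, KRT19, CDH1, ESR1, GATA3 and FOXA1) had a shared region within 1 kb of a transcription start site (TSS), against 3 of 4 fibroblast and endothelial markers (COL1A1, COL3A1 and CDH5, with PECAM1 lacking 1).

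The regions closest to the ends included a class with the telomere repeat itself, a class with a CTCF consensus match and others with neither. Sequences of the class with a CTCF consensus match are shown here. The 9 stretches, from hg38, show the 12-base core of the CTCF consensus in capitals with 30 bases on either side, read on the strand of the match. They were chosen to show the strongest region (2p), stretches of other ends with similar flanks, and a match that points the other way (10p). The flanks form 2 groups that differ from each other. The 2p, 16p and chr9:11368-11439 stretches resemble each other, and so do the chr9:11310-11381, 5p, 14q, 13q and 19q stretches. The 18q match, not shown here, resembles the latter group.
2p end, chr2:11573-11644, minus strand: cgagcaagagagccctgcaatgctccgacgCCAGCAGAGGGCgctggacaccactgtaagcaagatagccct
16p end, chr16:10936-11007, minus strand: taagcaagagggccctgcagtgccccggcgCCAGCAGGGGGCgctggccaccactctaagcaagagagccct
9p end, chr9:11310-11381, minus strand: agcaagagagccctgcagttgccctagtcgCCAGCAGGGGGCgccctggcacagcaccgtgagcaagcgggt
9p end, chr9:11368-11439, minus strand: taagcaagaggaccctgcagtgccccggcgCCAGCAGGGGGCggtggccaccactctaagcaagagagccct
5p end, chr5:13245-13316, minus strand: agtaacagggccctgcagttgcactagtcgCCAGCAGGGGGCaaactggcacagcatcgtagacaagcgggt
14q end, chr14:106883357-106883428, plus strand: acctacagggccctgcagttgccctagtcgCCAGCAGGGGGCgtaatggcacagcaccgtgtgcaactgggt
13q end, chr13:114352926-114352997, plus strand: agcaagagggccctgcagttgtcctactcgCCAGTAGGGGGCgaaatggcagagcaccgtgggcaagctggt
19q end, chr19:58606539-58606610, plus strand: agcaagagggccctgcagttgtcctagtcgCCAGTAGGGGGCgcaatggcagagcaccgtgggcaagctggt
10p end, chr10:11429-11500, plus strand: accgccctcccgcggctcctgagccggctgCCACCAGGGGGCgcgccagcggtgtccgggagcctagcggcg

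Within 5 kb of the 39 ends lay 37 shared regions, at 21 ends. Of these, 13 regions at 12 ends held TTAGGG in tandem (2 adjacent copies on either strand), with midpoints 73 to 1942 bp from the end. A further 10 regions at 9 ends held the CTCF consensus, with midpoints 437 to 4404 bp from the end, and 14 held neither. Peak strength is given as fold enrichment, the ratio of a peak's highest stack of reads to the background of the peak caller in the same library, and a region takes its strongest peak in each replicate. The array regions had a median fold enrichment of 6.67 in replicate 1 and 8.18 in replicate 2, the CTCF consensus regions 35.5 and 31.2, and the others 11.3 and 9.73. The array regions reached at most 15.4 and 13.9 and the CTCF consensus regions were at 16.8 and 15.9 or above. These 2 classes thus did not overlap in either replicate. Over all autosomal shared regions the median was 9.66 and 10.2. The strength of regions with a CTCF consensus match elsewhere is not reported here.

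**Figure D1:**
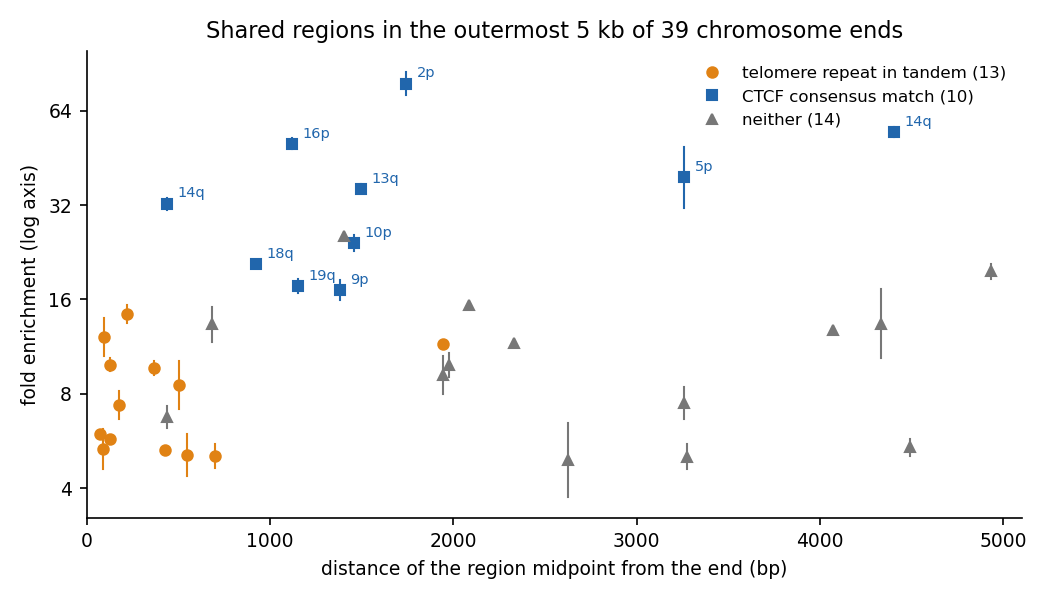
Each of the 37 shared regions in the outermost 5 kb of 39 chromosome ends is a point at the distance of its midpoint from the end (bp, x axis) and its fold enrichment (log y axis), placed at the geometric mean of the replicates, with a line joining both replicates. The 10 CTCF consensus regions, labelled by end, lie above all 13 regions with the telomere repeat in tandem.

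The 5 regions nearest to an end were all array regions. They lay at 16p (73 bp), 4p (90 bp), 1p (96 bp), 18p (125 bp) and 7p (126 bp). Fold enrichment was 5.98 in replicate 1 and 5.97 in replicate 2 at 16p, 4.60 and 6.19 at 4p, 10.6 and 13.9 at 1p, 9.43 and 10.4 at 18p, and 5.75 and 5.75 at 7p. The 16p, 4p and 7p regions were stronger than 9.30% to 25.9% of all autosomal shared regions, and the 1p and 18p regions than 48.2% to 61.2%. The stack of reads behind a value ranged from 19 to 62. At 4p, the smallest in replicate 1, it was 19 reads in replicate 1 (exact Poisson 95% interval 11.4 to 29.7) and 27 in replicate 2 (17.8 to 39.3), intervals that overlap and cover counting error only. The 18q array region (15.4 and 13.5), the strongest in replicate 1 and second to 1p in replicate 2, lay 221 bp from the end and held 62 copies of TTAGGG on either strand. Reads from such arrays fit many places, and 6 of the 13 array regions held at least 1 word of 100 bases that occurs elsewhere on chromosomes 1 to 22, X and Y, up to 52.8% of the words of the 18q region. The authors' treatment of reads with several matches is not given in the sources used here, and its part in these values was not tested.

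The strongest region of the outermost 5 kb lay at 2p, 1742 bp from the end, with a fold enrichment of 85.1 in replicate 1 and 71.9 in replicate 2. It was stronger than 96.9% of all autosomal shared regions in replicate 1 and 95.1% in replicate 2. Its stack of reads was 369 (exact Poisson 95% interval 332 to 409) and 324 (290 to 361). A 14q region 4404 bp from the end followed with 56.8 and 52.8, then 16p (1121 bp) with 52.2 and 48.2 and 5p (3259 bp) with 49.0 and 31.4. The 5p value differed most between replicates, while the other 3 kept their order. The 13q region (1497 bp) reached 37.3 and 34.9 and a second 14q region (437 bp) 33.8 and 31.0. The remaining 4, at 10p, 18q, 9p and 19q, lay between 15.9 and 25.8.

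The CTCF consensus was common in this zone. Of the 24 regions within 5 kb that held no TTAGGG in tandem, 10 (41.7%) held a match on either strand, against 6650 of all 209570 autosomal shared regions (3.17%). A match with at most 1 mismatch was found in 16 of the 24 (66.7%), against 15.7% of all autosomal shared regions. The 10 regions held 12 exact matches, whose centres lay 4 to 150 bp (median 70 bp) from the midpoint of the region. Of the 12 matches, 9 read 5′ to 3′ toward the chromosome end and 3 away from it, at 10p and, with 2 matches in 1 region, at 14q. Matches describe letters of the reference and do not show binding.

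Several of these regions were copies of each other. The 10q, 13q and 19q regions, 1152 to 1497 bp from their ends, shared between 51.1% and 66.1% of their words of 20 bases in each pair. Of the 24 regions without the repeat in tandem, 15 shared at least 1 such word with a region of another end. The 10q region (24.9 and 26.1) was the strongest of those without an exact CTCF match and had a stretch that differed from the consensus at position 11 of 12, counted from its 5′ end, shown here with the 12 bases in capitals.
10q end, chr10:133785790-133785861, plus strand: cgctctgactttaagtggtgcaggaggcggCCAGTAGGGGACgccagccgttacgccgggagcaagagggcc

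With distance, the share of CTCF consensus matches fell steeply at first and then levelled. It was 27.9% (12 of 43 regions) in the outermost 10 kb, 7.98% (21 of 263) from 10 to 100 kb, 4.62% (25 of 541) from 100 to 250 kb, 4.34% from 250 to 500 kb, 3.32% from 500 kb to 1 Mb and between 2.98% and 3.65% in the bins from 1 to 8 Mb. The outermost bins hold few regions and the ends share sequence, so that the regions in them are not independent.

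Regions with TTAGGG in tandem were rare, 55 of all autosomal shared regions (0.0262%), and 21 of the 55 (38.2%) were subtelomeric, where 5.08% of autosomal shared regions lay. A single region lay in the next 2 Mb. Inward of 5 kb there were 8 members with tandem copies. A 4q region 81804 bp from the end, whose nearest annotated gene was DUX4L2, held 70 copies with a fold enrichment of 18.2 and 19.02. A 1p region 170876 bp from the end, near DDX11L17, held 39 copies with 5.98 and 6.63. The other 6 held 2 to 6 copies and were mostly stronger, up to 65.3 and 69.4 for a 5p region 1143091 bp from the end near TERLR1.

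Open regions were denser in the outer 2 Mb than in the next 2 Mb. There were 123 shared regions per Mb of known bases against 103, a ratio of 1.19. Counted from the peaks of each replicate alone, replicate 1 had 149 peaks per Mb against 123 and replicate 2 had 153 against 127, ratios of 1.21 and 1.20 (mean 1.21 ± 0.00678, SD, n = 2). Farther in, density was 93.3 per Mb from 4 to 6 Mb and 84.5 from 6 to 8 Mb. Without the acrocentric starts it was 137 per Mb against 113, a ratio of 1.21. The direction turned with narrower windows, since the outermost 1 Mb held fewer regions than the next 1 Mb (ratio 0.906) and the outermost 500 kb fewer than the next 500 kb (0.747). A single condition in 2 replicates allows no test between groups of samples, an exact permutation test over 2 replicates cannot give a two-sided p below 0.5, and chromosome ends and regions are not replicates, so that densities and strengths are given as descriptions.

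By distance over the 39 ends, density rose from 77.1 regions per Mb at 10 to 100 kb and 93.3 at 100 to 250 kb to 134 at 250 to 500 kb and 149 at 500 kb to 1 Mb. It stayed at 148 from 1 to 1.5 Mb and 140 from 1.5 to 2 Mb and then fell to 114 at 2 to 3 Mb and 112 at 3 to 4 Mb. The outermost 10 kb stood apart with 111 regions per Mb (43 regions at 22 ends). Repeated sequence was most frequent nearest the end, and its share did not follow density in every bin. Sampled every 20 bases, 57.5% of the words of 100 bases in the outermost 10 kb, 36.8% at 10 to 100 kb, 12.5% at 100 to 250 kb and 4.91% at 250 to 500 kb occurred elsewhere in the genome, against 1.55% to 3.18% in the bins beyond. Per Mb of words that occur once, density was 261 in the outermost 10 kb, 122 at 10 to 100 kb, 107 at 100 to 250 kb and 154 at 500 kb to 1 Mb. These values count all regions, including those that hold repeated words, so they are not densities within unique sequence. Of the 37 regions within 5 kb of an end, 18 held at least 1 repeated word.

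**Figure D2:**
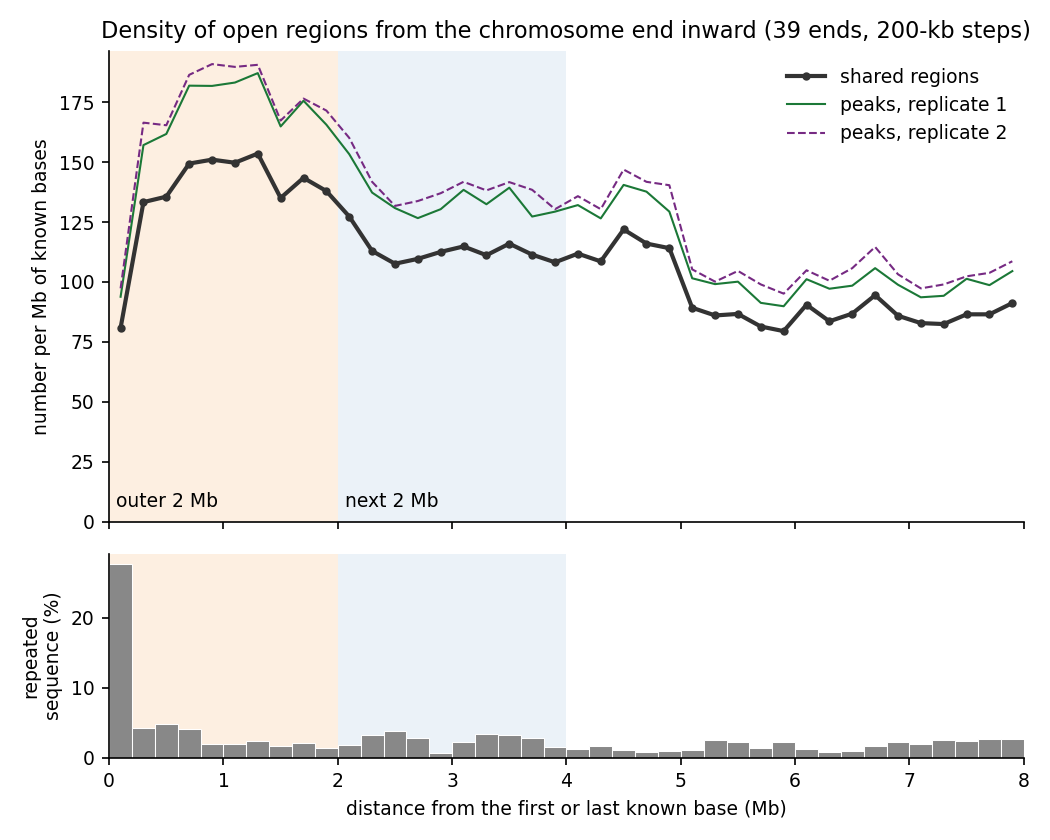
The upper panel plots the number of shared regions (black) and of peaks of each replicate (green, purple) per Mb of known bases against distance from the chromosome end (Mb) in steps of 200 kb over 39 ends, and the lower panel the percentage of sampled words of 100 bases that occur elsewhere in the genome. Density is 80.8 shared regions per Mb in the outermost 200 kb, where 27.7% of the words are repeated, and 133 in the next 200 kb, and both replicates follow the same course.

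The nearest shared region lay within 2 kb of 19 of the 39 ends and within 5 kb of 21, with a median distance of 3259 bp. At 7 ends it lay more than 100 kb inward, the farthest at 15q (207252 bp). A shared region within 5 kb was found at 16 of the 22 ends with at least 10 copies of TTAGGG in the outermost kb and at 5 of the other 17.

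The ends differed far more among themselves than the windows did. The highest densities in the outer 2 Mb were at 8q (290.5 regions per Mb), 9q (288.5), 16p (274.5), 20q (261.5) and 17q (257). The 5 lowest were the acrocentric starts, at 0 for 14p and 15p, 0.50 for 13p, 1.43 for 22p and 10.3 for 21p. Among the 39 other ends the lowest were 3p (25), 11q (34.0), 8p (37.5), 4q (41.5) and 1q (48.0). Replicates gave nearly the same order, with a Spearman correlation of 0.997 across the 39 ends. Copy number along the chromosomes was not analysed here, and each library had a single background for the whole genome, so that more copies of an arm and more accessibility per copy cannot be told apart between ends.

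Outer density was above that of the next 2 Mb at 27 of 44 ends (25 of 39 without the acrocentric starts), at 26 ends from the peaks of replicate 1 and 27 from those of replicate 2. It was higher at 10 of 17 p ends and 15 of 22 q ends. By the ratio of densities, the highest of the 39 ends were 8p with 75 regions against 5, 12q with 280 against 49, 11q with 68 against 16, 20q with 523 against 134, 10q with 286 against 77 and 5p with 402 against 113. The lowest were 6p with 133 against 267, 1q with 96 against 164, 3q with 240 against 373 and 14q with 289 against 442. Across the 39 ends, which share the libraries and differ in base composition, density ranked with the GC content of the window (Spearman 0.870), its number of protein-coding genes (0.714) and its number of promoter regions (0.910). Promoter regions are part of the regions counted in the density, so the last of these values is in part fixed in advance. The log ratio of outer to next density ranked with the difference in GC content (0.814) and less closely with the difference in the number of genes (0.362).

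**Figure D3:**
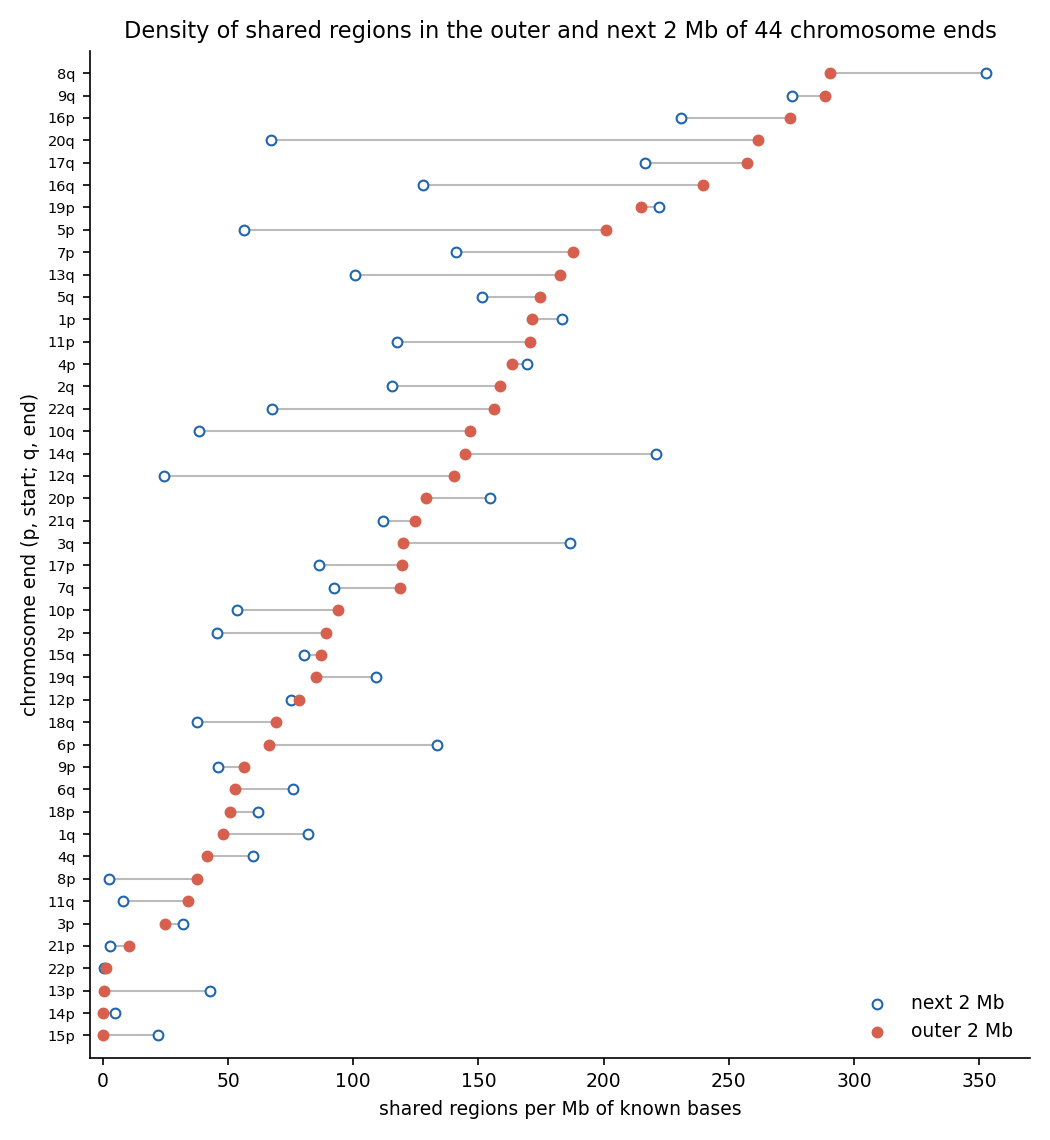
Shared regions per Mb of known bases in the outer 2 Mb (filled) and the next 2 Mb (open) of each of the 44 chromosome ends, ordered by the outer value and joined by a line. The outer value runs from 0 at 14p and 15p to 290.5 at 8q, and is the higher of the pair at 27 ends.

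Strength differed little between the windows. The median fold enrichment in the outer 2 Mb was 9.43 in replicate 1 (quartiles 5.52 and 24.2) and 9.51 in replicate 2 (5.53 and 24.8), against 8.97 and 9.07 in the next 2 Mb, a ratio of 1.05 ± 0.00177 (SD, n = 2). Fold enrichments come in steps of 0.230 in replicate 1 and 0.221 in replicate 2, and both medians cover the same regions. The SD therefore does not measure the full spread between replicates. It was 9.89 and 9.95 from 4 to 6 Mb, so the next 2 Mb were the weakest of these windows. Over all peaks of a single replicate, whether shared or not, the ratio was 1.03 in replicate 1 and 1.00 in replicate 2. The outer median was above the next in both replicates at 24 of 44 ends, below it in both at 13, and mixed or equal at 7. Just inside the limit of 2 Mb lay a 12p region 5276 bp from the nearest protein-coding TSS, that of DCP1B (5.52 and 6.19), and just outside it a 16p region at the promoter of NPW (62.1 and 64.6).

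Promoters made up more of the subtelomeric regions. Of the members, 2301 (21.6%, 95% Wilson interval 20.8 to 22.4, counting error only) lay within 1 kb of a protein-coding TSS, against 15.2% (14.5 to 16.0) in the next 2 Mb and 12.7% beyond 8 Mb. Density of such promoter regions was 26.6 per Mb against 15.7, a ratio of 1.69, and that of all other regions 96.7 against 87.6, a ratio of 1.10. Counted by region, and a gene can have several, promoter regions of the outer 2 Mb were weaker than those far from the ends. Their median fold enrichment was 15.6 in replicate 1 and 15.9 in replicate 2, against 14.3 and 14.8 in the next 2 Mb and 21.2 and 21.7 beyond 8 Mb. The outer promoter regions thus stood at 0.737 ± 0.00314 (SD, n = 2) of the value beyond 8 Mb. This did not hold by gene. The strongest region of each gene with a region within 1 kb of a TSS had a median of 54.8 and 57.7 in the outer 2 Mb. Beyond 8 Mb it was 52.7 and 54.4. For all other regions the medians were 8.74 and 8.85 in the outer 2 Mb, 8.51 and 8.62 in the next and 9.20 and 9.51 beyond 8 Mb. Members were wider than regions of the next 2 Mb (median 431 bp against 394 bp) and richer in GC (58.6% against 55.7%), and 4.38% against 2.60% were 2 kb or wider.

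**Figure D4:**
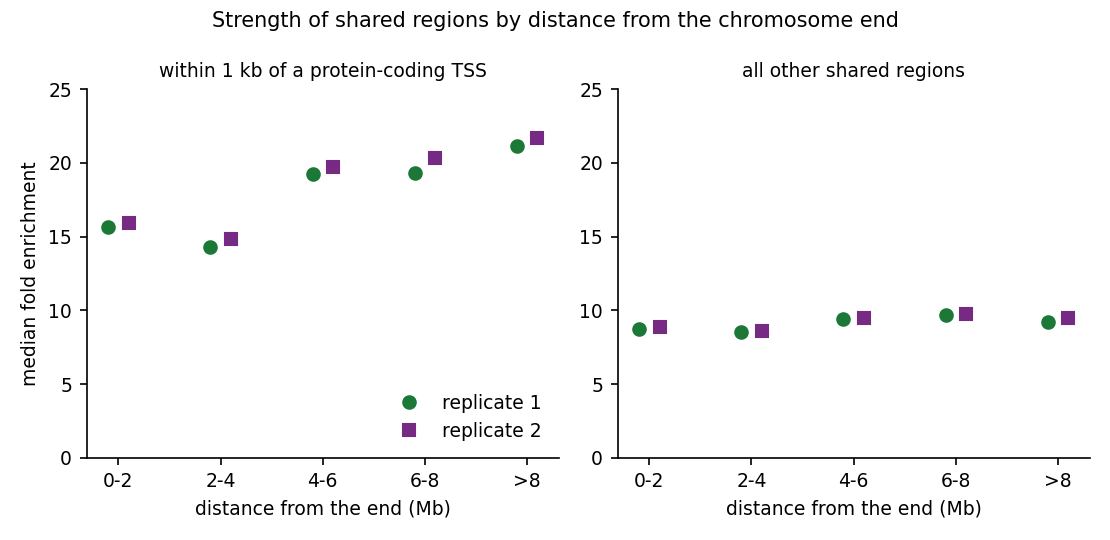
Median fold enrichment (y axis) of shared regions by distance from the chromosome end (Mb, x axis) in replicate 1 (green circles) and replicate 2 (purple squares), for regions within 1 kb of a protein-coding TSS (left) and all others (right). Regions near a TSS, of which a gene can have several, are at 14.3 to 15.9 within 4 Mb of an end and at 19.2 to 21.7 farther in. The others stay between 8.51 and 9.73.

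Counted by gene, open promoters were more frequent in the outer 2 Mb than over all autosomes. The outer 2 Mb held 1263 protein-coding genes (14.6 per Mb, against 8.83 in the next 2 Mb). A shared region overlapped the 1 kb on either side of a TSS for 1091 of them (86.4%, 95% Wilson interval 84.4 to 88.2), called an open promoter here, against 80.6% of all autosomal genes and 80.9% in the next 2 Mb. Taking only the strongest region of each open promoter, since several weaker ones can lie beside it, gave a median fold enrichment of 54.8 and 57.7, against 52.5 and 54.2 over all autosomes. The share was 79.4% (108 of 136) in the outermost 250 kb of the 39 ends and 87.2% (983 of 1127) from 250 kb to 2 Mb. The most genes lay at 16p (94 genes, 86 open), 8q (78 and 77), 19q (78 and 65) and 9q (74 and 73). At 1q, 14 of 62 genes were open.

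The 10 strongest members were mostly promoters. The strongest lay at RECQL4, a DNA helicase gene at 8q, with a fold enrichment of 299.6 in replicate 1 and 299.2 in replicate 2. At 8q followed TMEM276 (251 and 253), SHARPIN, a subunit of the linear ubiquitin ligase (237 and 224), and EEF1D, a translation elongation factor (209 and 201). At 9q lay a region 1293 bp from the nearest TSS of ARRDC1, an arrestin-domain gene (244 and 269), and the promoters of CCDC183 (226 and 209) and TRAF2, an adaptor of tumour necrosis factor receptors (220 and 206). TEDC1 at 14q (228 and 222) and CCDC57 at 17q (203 and 201) completed the promoters. The remaining region, at 1p near MTATP6P1, a nuclear copy of a mitochondrial gene, reached 188 and 226, the largest gap between replicates among the 10 in relative terms. Of its words of 100 bases, 21.1% occur on the mitochondrial genome, whose part in this value was not tested. Of the 1000 strongest autosomal shared regions, 81 (8.1%) were subtelomeric and spread over 18 ends, against 5.08% of all autosomal shared regions, and 40 lay in the next 2 Mb.

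Gene lists showed which promoters of the outer 2 Mb were open and which were not. All 29 ubiquitous genes whose TSS lay there were open (NTHL1 and TSC2 lay farther in), against 80.6% of all autosomal genes and 86.4% of those in the outer 2 Mb. Their median of 52.9 and 55.9 was close to that of all open autosomal genes (52.5 and 54.2). UBE2J2, a ubiquitin-conjugating enzyme, reached 122 and 136, POLR3K, a subunit of RNA polymerase III only 43607 bp from the 16p end, 94.1 and 101, FASN, fatty acid synthase, 89.5 and 114, and the shared promoter of PSMB1, a proteasome subunit, and TBP, the TATA-binding protein, 66.7 and 74.5. The lowest was MPG, a DNA glycosylase, at 14.04 and 13.05.

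Of the 16 genes of duplicated subtelomeric families, 4 were open, a share of 25%, against 80.6% of all autosomal genes. ZNF718, a zinc-finger gene at 4p, reached 129 and 138 and FRG1 at 4q, a gene involved in RNA processing, 76.6 and 84.2. TUBB8, a tubulin of the oocyte, was at 11.3 and 8.40 and ZNF595 at 7.36 and 6.85. None of the 7 OR4F olfactory receptors, DUX4, a transcription factor of the early embryo, FRG2, FRG2B, TUBB8B or WASHC1, a subunit of the actin-regulating WASH complex, had a shared region. These families occur in near-identical copies, so that a lack of a peak does not tell a closed promoter from reads without a unique place.

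Lineage genes varied. In the alpha globin cluster at 16p, a shared region lay near HBA1 (60.5 and 55.7) and HBQ1 (47.6 and 48.2). There was none near HBZ, HBM or HBA2, and HBA1 and HBA2 are near-identical copies whose peaks are uncertain. The HBQ1 region began at base 181176, at the 3′ end of the gene, which runs from 180459 to 181179. It thus met the limit of 1 kb from downstream of the TSS. Among 4 mucins at 11p, MUC5B, an airway mucin, lay in an open region of 3567 bp (40.5 and 42.2), while MUC2, MUC5AC and MUC6 had none. The open genes expressed in neurons ranged widely in fold enrichment. SHANK3, a postsynaptic scaffold, reached 74.6 and 67.4 and PTPRN2, a protein of secretory vesicles, 38.2 and 39.6, whereas CHL1 (4.37 and 3.98) and DLGAP2 (4.60 and 4.20) were near the lowest values called. SNTG2 was at 9.89 and 10.2 and CNTN6 at 10.1 and 11.3. The regions given for CHL1, DLGAP2 and CNTN6 lay at TSSs of transcripts that begin inside the gene, far from its start. They began at bases 381500, 823117 and 1401878, and the genes at 196763, 737628 and 1092658. ADARB2 had none, and DPP6 and MYT1L lay farther in.

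Of 9 developmental transcription factors, 7 were open (77.8%), near the share of all autosomal genes (80.6%). MAFK at 7p, a small MAF protein, lay in a region of 19607 bp with 151 and 151, HES4 at 81.5 and 79.8, SOX12 at 79.4 and 69.4, FOXC1 at 42.8 and 38.3 and FOXQ1 at 39.8 and 38.3. SOX8 was at 10.4 and 11.9. UNCX was at 4.60 and 3.98, near the lowest values called. The neighbour of FOXQ1 and FOXC1 at 6p, FOXF2, and IRF4, a lymphoid factor, had none, and SIM2, SKI, VSX1 and ZIC5 lay farther in. TERT, the reverse transcriptase of telomerase at 5p, had a shared region of 211 bp at its promoter. Its fold enrichment was 4.14 in replicate 1 and 3.98 in replicate 2, near the lowest values called. NOTCH1 at 9q reached 85.4 and 82.9 and FGFR3 at 4p 29.2 and 29.6, both receptors at the cell surface.

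**Figure D5:**
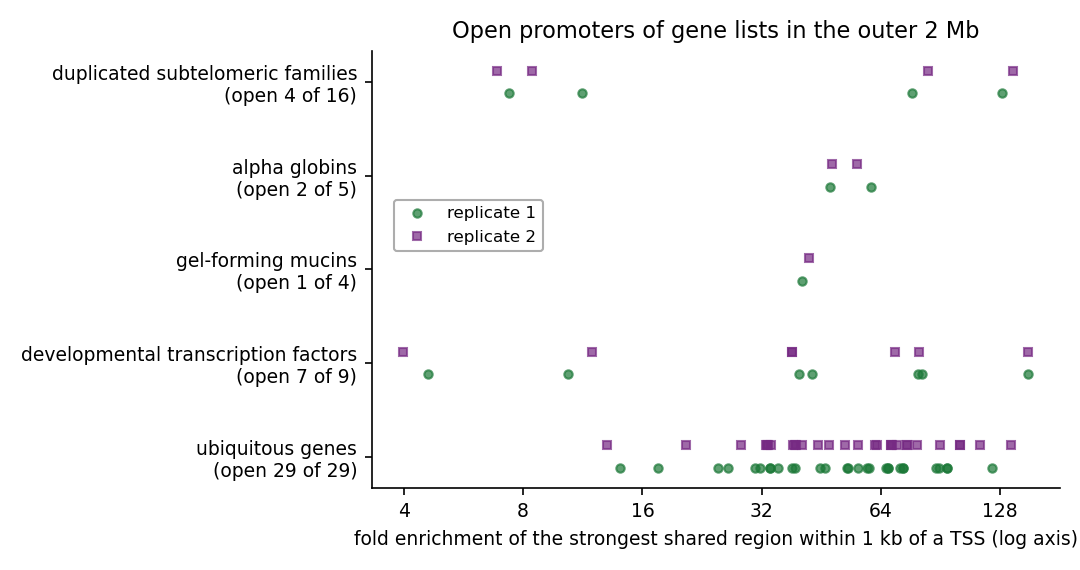
Fold enrichment (log x axis) of the strongest shared region within 1 kb of a TSS for each open gene of 5 lists in the outer 2 Mb, in replicate 1 (green circles) and replicate 2 (purple squares). The label gives the number of open genes of those in the window, from 29 of 29 for ubiquitous genes to 4 of 16 for duplicated families.

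Peaks of the outer 2 Mb were found again in the other replicate about as often as those inward. In replicate 1, 87.7% of the 12854 outer peaks lay in a shared region, against 87.9% in the next 2 Mb and 90.1% over all autosomes. In replicate 2 the shares were 84.3% of 13239, 83.7% and 84.7%. Outer peaks seen in a single replicate were weak, with a median fold enrichment of 4.14 in replicate 1 and 3.98 in replicate 2. Such peaks were also weak elsewhere, at 4.14 and 4.20 in the next 2 Mb and 4.37 and 4.20 over all autosomes.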

How the data were processed

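ATAC-seq of CAMA-1 was measured in 2 biological replicates of 1 condition. Per the submitters' processing notes, the authors trimmed reads with Trim Galore 0.6.5, aligned them with Bowtie2 2.3.5.1 and called peaks in each replicate with MACS2 2.2.6 on hg38. Caller settings and the treatment of duplicates and excluded regions are not given in the sources used here. The authors deposited 4 values per peak: a −log10 p-value, a −log10 q-value, a score equal to 10 times the latter without its decimals, and a fold enrichment (a ratio to background within 1 library). No read counts were used. Deposited −log10 q-values began at 2.24 (replicate 1) and 2.07 (replicate 2). Stacks of reads were computed from the step between deposited fold enrichments (0.230 and 0.221), and intervals cover counting error only.

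Peaks overlapping by at least 1 bp were merged. Regions were placed by midpoint, TSSs and genes came from GENCODE release 44, and the word counts used exact matches on either strand. Merging and word counting were tested on simulated data. Python 3.11.15, numpy 2.4.6, pandas 2.3.3, scipy 1.17.1, numba 0.67.0, pysam 0.24.0 and matplotlib 3.10.9 were used. The members, gene lists and alternatives were chosen with earlier results of these data known. Named were the 10 strongest members, the 5 nearest to an end, the 5 densest and 5 least dense ends, and fixed gene lists, of which some genes and counts are not reported here. Other regions were named after their values were seen. Alternatives changed the peak threshold, the overlap, the ends, the window, the treatment of promoters and repeats, the strength measure and the replicates.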

Additional observations from a re-analysis of the deposited data

How the results depend on the processing

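Of 51 alternatives to 6 results, 25 stayed within the limits set (1 SD of the replicates for ratios, 1.5 times for counts), 24 moved and 2 turned the direction. For the strength ratio this SD was 0.00177, a narrow limit for medians of values that come in steps. The ratio of outer to next density, 1.19, fell to 0.906 with windows of 1 Mb and 0.747 with windows of 500 kb. The repeated sequence of the outermost bins weighs more in these windows, and the cause was not tested. The ratio was 1.18 with a reciprocal overlap of 50%, 1.21 without the acrocentric starts, 1.10 for regions more than 1 kb from a TSS, 1.17 as the median over ends, and from 1.20 to 1.21 with a replicate left out. With alternatives added after the data were seen it was 1.26 per Mb of words that occur once, 1.22 without both ends of chromosome 8 and 1.69 for promoters alone. The strength ratio, 1.05, was 1.08 where peaks needed a −log10 q of 10 or more, 1.08 with reciprocal overlap, 1.02 and 1.01 with windows of 1 Mb and 500 kb, 1.03 away from TSSs, 1.08 by −log10 q, 1.04 by the mean over peaks, 1.09 for promoters alone (added later), and from 1.00 to 1.03 with a replicate left out. With windows of 500 kb, 11 ends were denser and 15 stronger in the outer window, in place of 27 and 24. Windows of 1 Mb held 5040 members and of 500 kb 2147. Within 3 kb of a TSS lay 39.2% of members. No paired analysis was possible because the series has a single condition. The peak lists give no depth per library, so a lack of a peak near an end does not show closed chromatin there. Repeated sequence was counted only as exact words of 100 bases, so shorter or imperfect copies do not enter that share.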

Other observations

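Outside the outer 2 Mb, 34 shared regions held TTAGGG in tandem, 1 of them in the next 2 Mb. The region with the most copies among them, chosen after its values were seen, lay on chromosome 2 at chr2:113602990-113604550 beside DDX11L2, at the place where a pair of ancestral chromosomes is known to have joined end to end. Its fold enrichment was 72.9 in replicate 1 and 67.7 in replicate 2. All 40 copies read CCCTAA on the plus strand and none TTAGGG. It also held 2 exact CTCF consensus matches, shown with 30 bases on either side and the 12-base core in capitals.
chr2:113604111-113604182, minus strand: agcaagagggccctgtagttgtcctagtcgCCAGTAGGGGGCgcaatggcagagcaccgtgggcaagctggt
chr2:113604169-113604240, minus strand: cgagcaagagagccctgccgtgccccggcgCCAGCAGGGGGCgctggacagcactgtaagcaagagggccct
Of the 24 regions within 5 kb of a chromosome end that held no TTAGGG in tandem, 13 shared at least 1 word of 20 bases with this interior region. The shares were 62.1% of the words of a 1q region 2086 bp from its end, 38.1% at 10q, 35.3% at 19q and 28.3% at 13q.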
